A study of Cricetulus griseus with 5 samples.

Results

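Potassium channel subunits were examined on 5 dual-channel microarrays on which RNA of the Chinese hamster cell line A23 was hybridised against RNA of the same line. Members were all array features (called probes here) whose only gene symbol begins with Kcn, goes on with letters and then a digit, in the array's mouse gene annotation. This gave 77 of 20868 probes, for 73 of 16504 named genes. By symbol, 28 probes belonged to voltage-gated channels (Kcna to Kcnd, Kcnf, Kcng, Kcnh, Kcnq, Kcns and Kcnv), 15 to inward rectifiers (Kcnj), 9 to tandem-pore (K2P) channels (Kcnk), 12 to calcium-activated channels (Kcnm, Kcnn and Kcnt) and 10 to accessory proteins (Kcne and Kcnip). The 3 beta subunit genes Kcnab1, Kcnab2 and Kcnab3 have a place in none of these classes and are given apart. Kcnmb4os1 and Kcnmb4os2, counted with Kcnm by their symbols, are named as opposite-strand transcripts of Kcnmb4, not as channel subunits.

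A23 cells are Chinese hamster fibroblasts that lack thymidine kinase. They serve as recipients of donor chromosome fragments in radiation hybrid panels, where a fragment adds a gene copy to the recipient's own. All 5 arrays form a single group, untreated and with no other genotype, time or agent. Both channels of every array held A23 RNA, labelled directly from 20 µg of total RNA, with Cy5 for channel 1 and Cy3 for the other, in the same orientation throughout. The series is a control for the power to detect cis ceQTLs, loci at which the copy number of a gene acts on its own expression.

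Potassium channels let potassium ions leave or enter a cell along their gradient, and they set the resting potential and end electrical excitation. Voltage-gated subunits open on depolarisation, inward rectifiers hold the potential near rest, tandem-pore channels carry background currents and calcium-activated channels couple the potential to intracellular calcium. Accessory proteins change the gating or surface number of pore-forming subunits. Many of the genes are best known from neurons, heart and muscle, while channels such as KCa3.1 (Kcnn4) and the large-conductance channel (Kcnma1) are also known from fibroblasts.

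Each value is a log ratio of the 2 channels, for which a self-self array implies 0. The ratios carry no brightness, so they cannot show which channels A23 cells express, and the labelled cell type could not be checked against the levels of its markers. The values are read as log10, but the log base is not stated. Which dye is the numerator is not stated either, so signs are those of the deposited values and no channel is called higher. Nothing in the labels says that the arrays used separate cultures or extracts, so p-values rest on the spread from array to array alone, and that spread may be technical. Across all probes, the SD of the ratios within an array was 0.119 to 0.127 on 4 arrays and 0.174 on replicate 2, and replicate 5 had the largest share of ratios of exactly 0 (20.8% against 6.43% to 12.4%). No slide or scan date is given, so no batch could be tested.

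Most potassium channel genes gave ratios close to 0 that varied between arrays by more than their mean. The median of the 77 means was -0.00577 (all probes 0.00187), with 35 positive, 41 negative and 1 at exactly 0. The median absolute mean was 0.0434, 1.11-fold if log10, against 0.0392 over all probes. Only Kcnj11, the pore-forming subunit Kir6.2 of the ATP-sensitive potassium channel, passed limma's moderated test of the mean ratio against 0 at a Benjamini-Hochberg adjusted p of 0.05. That is 1 of 77 members, where 3.42% of all probes passed, 1.41% with a positive and 2.00% with a negative sign. At an adjusted p of 0.1 in limma, 8 members passed, beside 13.3% of all probes. At an unadjusted p of 0.05, 20 members passed, 7 positive and 13 negative, beside 27.3% of all probes (13.4% positive and 13.8% negative). The same sign on all 5 arrays was seen for 15 members, 5 positive and 10 negative, or 19.5% of them, against 26.4% of all probes (13.0% positive and 13.4% negative). Mean ratios beyond 1.5-fold were found for 4 members (Kcnc2, Kcnip1, Kcnip3 and Kcnv1), or 5.19%, close to the 5.35% of all probes.

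**Figure D1:**
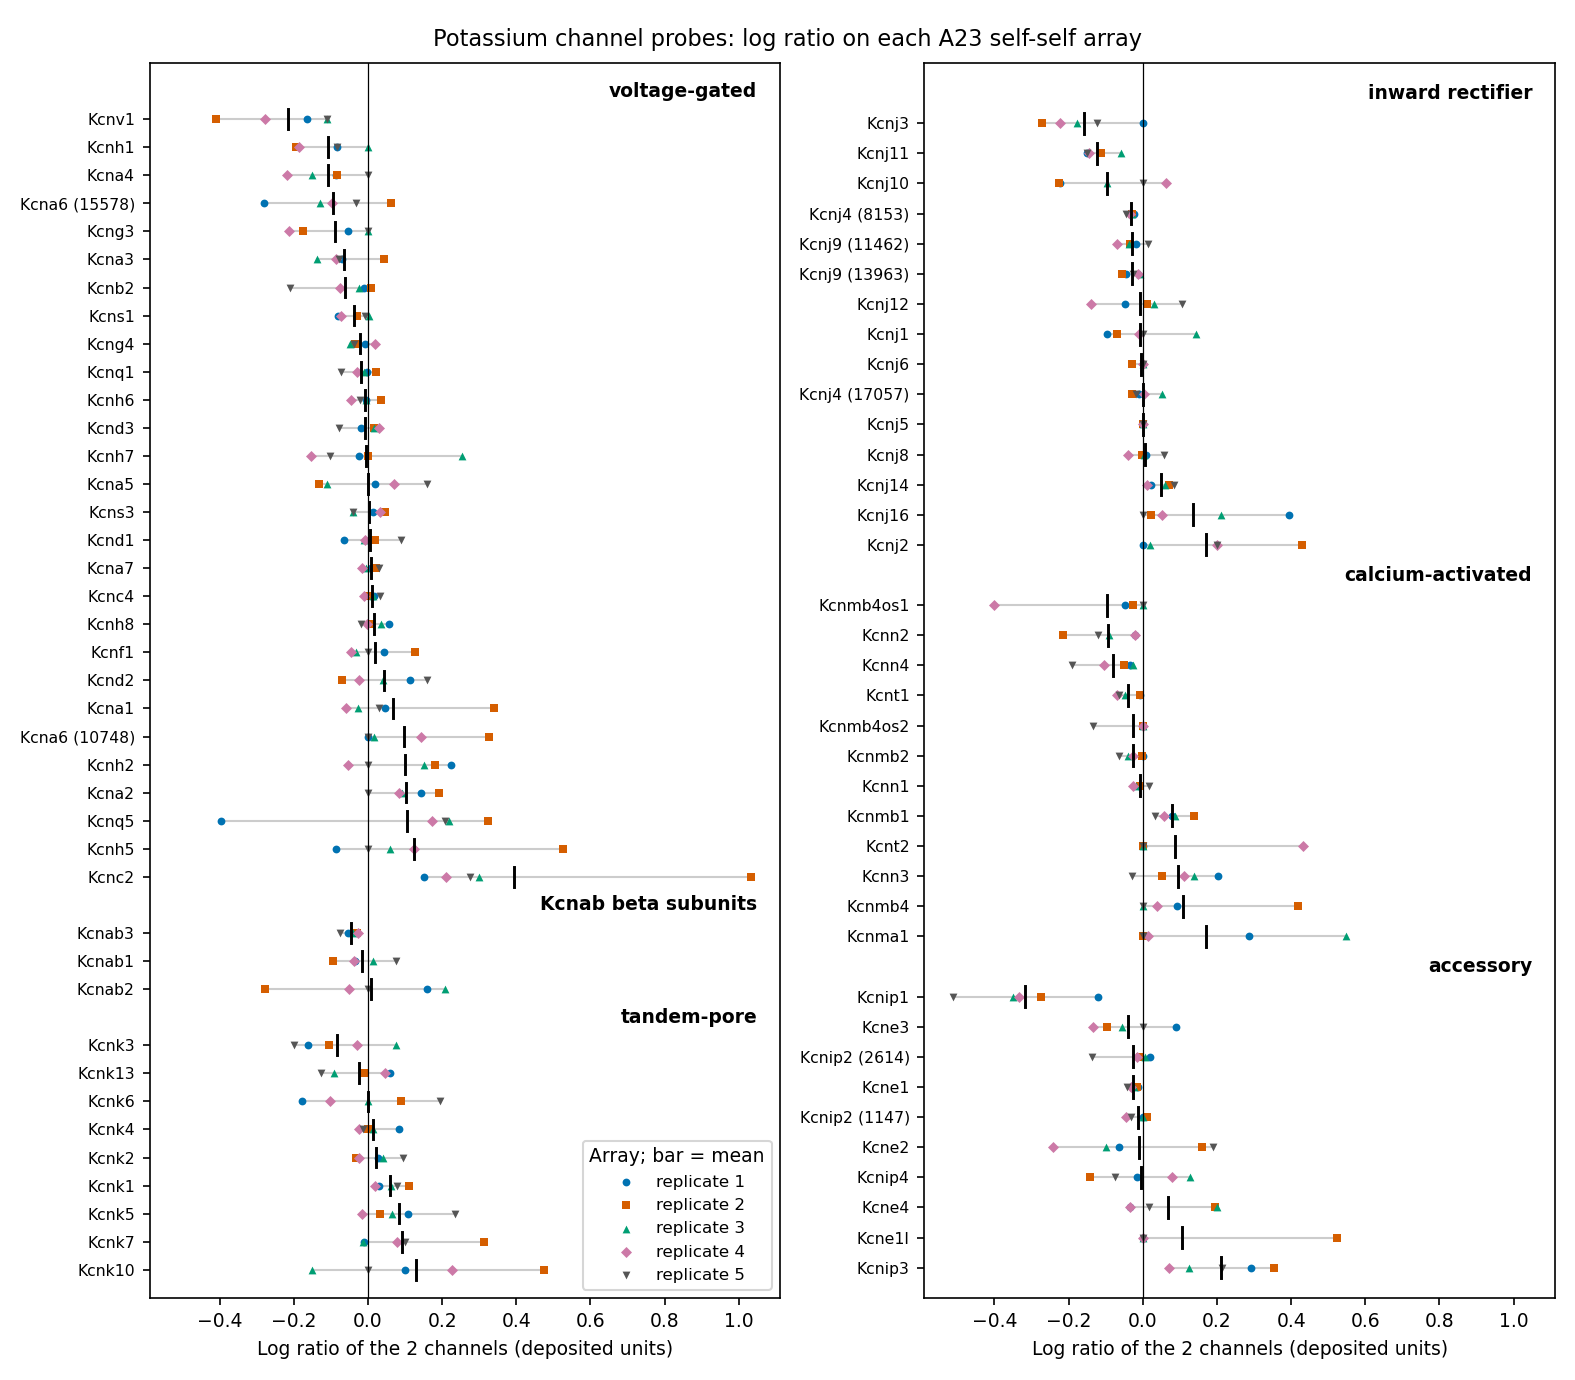
Log ratio (deposited units, x axis) of each potassium channel probe on each of the 5 A23 self-self arrays, grouped by class and sorted by mean (black bar); grey lines span the 5 arrays and numbers in brackets are feature numbers. Most probes straddle 0, and the values farthest to the right, such as 1.03 for Kcnc2 and 0.526 for Kcnh5, are often those of replicate 2 (orange squares).

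Voltage-gated channels had no called member among 28 probes of 27 genes in limma, while 5 passed at an unadjusted p of 0.05 (17.9%, beside 27.3% of all probes). Their means ranged from -0.215 to 0.394, with a median of 0.00184 and 15 of 28 positive. Of the classical Kv families Kcna to Kcnd, 9 of 14 probes had a positive mean.

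Kcnc2, a Kv3 subunit of fast-spiking neurons, had the largest mean of all members. Its log ratios on replicates 1 to 5 were 0.151, 1.03, 0.299, 0.210 and 0.275. All were positive, and replicate 2 stood far above the other 4. The mean was 0.394 ± 0.362 (SD, n = 5; limma adjusted p = 0.169), 2.48-fold if log10 and 1.31-fold if log2. Without replicate 2 it was 0.234 ± 0.0667 (SD, n = 4; limma adjusted p = 0.0910).

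Kcnv1, which encodes a silent subunit that conducts only in assembly with other Kv subunits, was negative on every array. Its ratios were -0.166, -0.410, -0.110, -0.278 and -0.110, lowest on replicate 2. The mean of -0.215 ± 0.129 (SD, n = 5) had a limma adjusted p of 0.0861, and it passed only after arrays were scaled to the same interquartile range (limma adjusted p = 0.0483). The other silent subunits Kcnf1, Kcng3, Kcng4, Kcns1 and Kcns3 had means between -0.0885 and 0.0187.

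Kcnq5, an M-current subunit, had 1 array opposite in sign to the other 4. Replicate 1 gave -0.396, while replicates 2 to 5 gave 0.324, 0.219, 0.174 and 0.208. Its mean was 0.106 ± 0.286 (SD, n = 5), which was 0.231 without replicate 1 and 0.0512 without replicate 2. Kcnq1, the pore of the slow delayed rectifier of the heart, was far tighter, with a mean of -0.0186 ± 0.0358 that was -0.00479 without replicate 5.

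Kcnh5 and Kcna1 also had much smaller means without replicate 2. Kcnh5, an ether-a-go-go channel, gave -0.0870, 0.526, 0.0599, 0.124 and 0 on replicates 1 to 5, so its mean of 0.124 ± 0.237 (SD, n = 5) was 0.0241 without replicate 2. Kcna1, a delayed rectifier of axons, gave 0.0457, 0.340, -0.0260, -0.0580 and 0.0307, and its mean changed from 0.0665 to -0.00192. Kcna1 is described here for that value, having been chosen after the values were seen.

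Kcna3, the Kv1.3 channel of lymphocytes, was negative on 4 arrays (-0.136 to -0.0706) and positive on replicate 2 (0.0430), with a mean of -0.0655 ± 0.0659 (SD, n = 5; limma adjusted p = 0.201). Kcnh1, an ether-a-go-go channel known from proliferating cells, was negative on 4 arrays and listed at exactly 0 on replicate 3, with a mean of -0.109 ± 0.0805 (adjusted p = 0.122 in limma). Kcnd2, which carries A-type current, had values of both signs from -0.0694 to 0.158 and a mean of 0.0434 ± 0.0941, which was 0.0147 without replicate 5 and 0.0716 without replicate 2. The tightest Kv probes were those of Kcnc4, at 0.0111 ± 0.0162, and Kcna7, at 0.00752 ± 0.0184.

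Inward rectifiers held the 1 called member and the smallest spread of the 5 classes. Among 15 probes of 13 genes, 10 means were negative, 4 positive and 1 exactly 0, with a median of -0.00675. Their median SD between arrays was 0.0348, against 0.0822 over all members and 0.0588 over all probes. At an unadjusted p of 0.05, 4 negative probes and 1 positive probe passed, or 33.3%, beside 27.3% of all probes. With so few probes a class, such shares are only descriptions.

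Kcnj11 forms the pore of the ATP-sensitive channel, which closes as ATP rises and controls insulin secretion in beta cells. Its ratios on replicates 1 to 5 were -0.152, -0.112, -0.0575, -0.145 and -0.150. All 5 were negative, and replicate 3 lay closest to 0. The mean was -0.123 ± 0.0402 (SD, n = 5), 1.33-fold if log10 and 1.09-fold if log2, with a limma adjusted p of 0.0446. The call was lost with robust variance moderation (limma adjusted p = 0.0571) and when any 1 array was left out (limma adjusted p = 0.0961 to 0.124), although the mean stayed between -0.140 and -0.116.

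The related pore gene Kcnj8 and the receptor genes Abcc8 and Abcc9, whose products pair with such pores, were not called. Kcnj8, which encodes the related pore Kir6.1, had a mean of 0.00566 ± 0.0348 (SD, n = 5), with values of both signs from -0.0401 to 0.0577. The 3 probes of the sulfonylurea receptor gene Abcc8 had means of 0.0127, -0.00684 and -0.00128. Abcc9, the other receptor gene, had -0.0955 ± 0.115, with 3 negative arrays, 1 positive and 1 at exactly 0.

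The G protein-gated subunits Kcnj3, Kcnj5, Kcnj6 and Kcnj9, which slow the heart and quiet neurons on receptor signals, gave unlike records. Kcnj3 was listed at exactly 0 on replicate 1 and was -0.270, -0.179, -0.224 and -0.123 on the others, with a mean of -0.159 ± 0.104 (SD, n = 5; limma adjusted p = 0.0993). With its zero taken as missing the mean was -0.199 and the probe passed in limma (adjusted p = 0.0488). Kcnj5 was listed at exactly 0 on all 5 arrays, and Kcnj6 on all but replicate 2 (-0.0288). The 2 Kcnj9 probes had means of -0.0290 and -0.0285.

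The Kcnj2 and Kcnj16 genes had the largest positive means of the class. Kcnj2, which encodes Kir2.1 and stabilises the resting potential of muscle, gave 0, 0.428, 0.0186, 0.201 and 0.200, with a mean of 0.170 ± 0.173 (SD, n = 5; limma adjusted p = 0.199). None of its values was negative, and without replicate 2, the highest, the mean was 0.105. Kcnj16, whose product joins Kir4.1 in kidney and glia, gave 0.393, 0.0216, 0.211, 0.0515 and 0, highest on replicate 1, with a mean of 0.135 ± 0.166 that was 0.0709 without it. For Kcnj4, which encodes Kir2.3, 1 probe (feature 8153) had the smallest spread of any member whose ratios varied, at -0.0319 ± 0.00786 (limma adjusted p = 0.0741).

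Tandem-pore channels were positive in 7 of 9 means, although that of Kcnk6 turned negative with array scaling, quantile normalization or array weights. The median mean was 0.0210, 0 of 9 were called in limma, and Kcnk1 alone passed at an unadjusted p of 0.05 (11.1%, beside 27.3% of all probes). Kcnk1, which encodes TWIK-1, was positive on every array, at 0.0295, 0.111, 0.0623, 0.0202 and 0.0773. Its mean was 0.0602 ± 0.0370 (SD, n = 5; limma adjusted p = 0.1003). Kcnk10, the stretch-sensitive TREK-2 channel, ranged from -0.152 on replicate 3 to 0.475 on replicate 2, with a mean of 0.130 ± 0.238 that was 0.0434 without replicate 2. Its relative Kcnk2 (TREK-1) ranged from -0.0332 to 0.0950, with a mean of 0.0210 ± 0.0522 that was 0.00247 without replicate 5.

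The other tandem-pore genes that were named varied in both directions. Kcnk7 was positive on 3 arrays, led by 0.312 on replicate 2, and close to 0 on the others, with a mean of 0.0930 ± 0.133 (SD, n = 5) that was 0.0383 without replicate 2. Kcnk5, the acid-sensitive TASK-2 channel, was positive on 4 arrays and highest on replicate 5 (0.236), with a mean of 0.0847 ± 0.0958 that was 0.0470 without replicate 5. Kcnk6 had a mean of 4.67e-05 although its arrays ran from -0.177 to 0.193, and Kcnk4 (TRAAK) had 0.0125 ± 0.0427.

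Calcium-activated channels had 0 of 12 probes called in limma, and 5 of 12 passed at an unadjusted p of 0.05, 2 positive and 3 negative (41.7%, beside 27.3% of all probes). The 5 include the sodium-activated channel gene Kcnt1, counted here by symbol. With 1 array left out, 2 to 4 of the 12 passed in limma, or 16.7% to 33.3%, beside 21.1% to 25.4% of all probes. Of the small- and intermediate-conductance genes, Kcnn1, Kcnn2 and Kcnn4 had negative means and Kcnn3 a positive one. Kcnn4, the intermediate-conductance channel, was negative on all 5 arrays, at -0.0334, -0.0504, -0.0267, -0.104 and -0.190. Its mean was -0.0809 ± 0.0682 (SD, n = 5; limma adjusted p = 0.153), and -0.0536 without replicate 5. Kcnn1 was among the tightest members, at -0.00876 ± 0.0163.

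Kcnma1, the pore of the large-conductance channel, was among the least repeatable members. It was 0.286 on replicate 1, 0.547 on replicate 3 and 0.0146 on replicate 4, and exactly 0 on replicates 2 and 5. The mean of 0.170 ± 0.244 (SD, n = 5) had a limma adjusted p of 0.317. The mean was 0.0751 without replicate 3 and 0.288 with array weights.

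The beta subunits of that channel were unlike each other. Kcnmb1, the smooth muscle beta subunit, was positive on all 5 arrays, at 0.0794, 0.139, 0.0863, 0.0580 and 0.0331, with a mean of 0.0792 ± 0.0395 (SD, n = 5; limma adjusted p = 0.0717). With array weights it passed in limma (adjusted p = 0.0382), and it is named for that, after its values were seen. Kcnmb4, the neuronal beta subunit, rested on replicate 2 (0.419), with 0.0917, 0, 0.0384 and 0 on the other arrays. Kcnmb2 had a mean of -0.0257 ± 0.0270.

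The opposite-strand transcripts of Kcnmb4 were mostly at or near 0. Kcnmb4os1 was -0.402 on replicate 4 and between -0.0476 and 0 elsewhere, and Kcnmb4os2 was exactly 0 on 4 arrays and -0.134 on replicate 5. Of the sodium-activated channel genes, Kcnt2 was exactly 0 on 4 arrays and 0.432 on replicate 4.

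Accessory proteins held 2 of the 4 means beyond 1.5-fold, with opposite signs, and 0 of 10 probes were called in limma while 3 passed at an unadjusted p of 0.05 (beside 27.3% of all probes). Kcnip proteins are calcium sensors that bind Kv4 channels and raise their number at the surface. Kcnip1 was negative on all 5 arrays, at -0.121, -0.275, -0.349, -0.334 and -0.511. Its mean was -0.318 ± 0.141 (SD, n = 5), 2.08-fold if log10, with a limma adjusted p of 0.0564. Kcnip3, also known as the transcriptional repressor DREAM, was positive on all 5, at 0.293, 0.355, 0.125, 0.0697 and 0.214. Its mean was 0.211 ± 0.117 (SD, n = 5), 1.63-fold if log10, with a limma adjusted p of 0.0760.

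Both genes sat close to the threshold, and the processing moved them across it. Kcnip1 passed with array weights (limma adjusted p = 0.0418), with exact zeros taken as missing (0.0494) and among probes with no exact 0 (0.0336). Kcnip3 passed only in the last of these (0.0480). Over all probes, limma called 7.58%, 3.06% and 8.54% in these settings, in that order, against 3.42% in the main fit. Their Kv4 partners Kcnd1, Kcnd2 and Kcnd3 had means of 0.00477, 0.0434 and -0.00736, none called.

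The Kcne genes encode single-span subunits that retune Kv channels. Kcne1, the partner of Kcnq1, was negative on every array within a narrow range, from -0.0428 to -0.0131, with a mean of -0.0252 ± 0.0120 (SD, n = 5; limma adjusted p = 0.129). Kcne2, a partner of Kcnh2, varied widely from -0.243 on replicate 4 to 0.190 on replicate 5, with a mean of -0.0112 ± 0.183. Kcne1l was exactly 0 on 4 arrays and 0.525 on replicate 2.

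The cytoplasmic Kv beta subunit genes also differed in repeatability. Kcnab3 was negative on all 5 arrays, from -0.0744 to -0.0277, with a mean of -0.0448 ± 0.0195 (SD, n = 5; limma adjusted p = 0.0760). It passed in limma with array weights (adjusted p = 0.0476). Kcnab1 had a mean of -0.0159 ± 0.0638 and Kcnab2 of 0.00802 ± 0.192, the latter from -0.276 on replicate 2 to 0.206 on replicate 3.

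**Figure D2:**
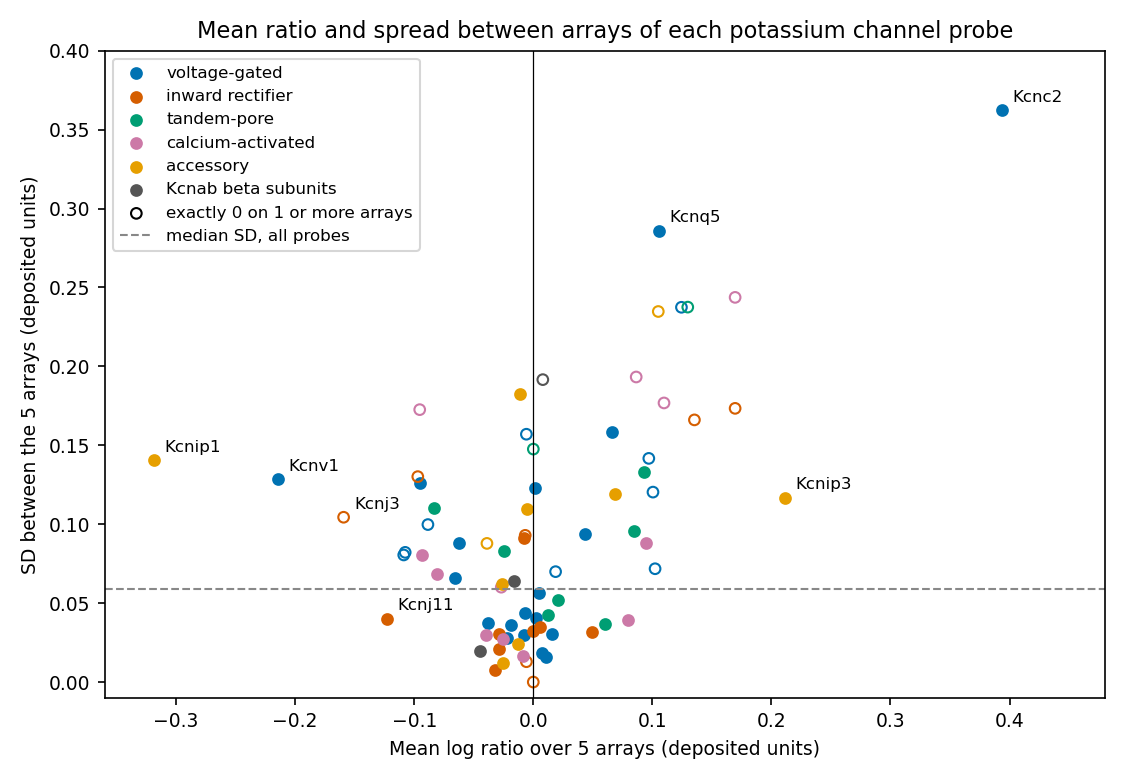
Mean log ratio (x axis) against the SD between the 5 arrays (y axis, both in deposited units) for each of the 77 potassium channel probes, coloured by class; open circles are probes at exactly 0 on 1 or more arrays, and the dashed line is the median SD of all probes (0.0588). Kcnj11 combines a mean of -0.123 with an SD of 0.0402, whereas the larger means of Kcnip1, Kcnv1, Kcnip3 and Kcnc2 come with SDs of 0.117 to 0.362.

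Kcna6, Kcnj4, Kcnj9 and Kcnip2 were measured by 2 probes each, which shows how far 2 probes of the same gene agree when both channels hold the same RNA. The probes of Kcna6 did not share a sign in their means. Feature 10748 gave 0, 0.327, 0.0162, 0.142 and 0, and feature 15578 gave -0.279, 0.0616, -0.130, -0.0971 and -0.0318. The first was higher on all 5 arrays, by 0.192 ± 0.104 (SD, n = 5), and both had their highest value on replicate 2. Without replicate 2 the mean of the first was 0.0395 instead of 0.0970, and without replicate 1 that of the second was -0.0494 instead of -0.0954. Averaged over both probes, the gene's mean was 0.000828.

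The other genes had probes with closer means. The Kcnj4 probes (features 17057 and 8153) had means of -0.000389 and -0.0319, and the Kcnj9 probes (features 11462 and 13963) had -0.0290 and -0.0285. The Kcnip2 probes (features 1147 and 2614) had means of -0.0124 and -0.0266, with 1 stray value of -0.136 for the latter on replicate 5. Single arrays differed more than the means. The first feature minus the second ran from -0.00108 to 0.0804 for Kcnj4, -0.0575 to 0.0401 for Kcnj9 and -0.0306 to 0.104 for Kcnip2. The 2 Kcnip2 probes were annotated to 1 transcript record, and the probes of each of the other genes to 2 records.

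**Figure D3:**
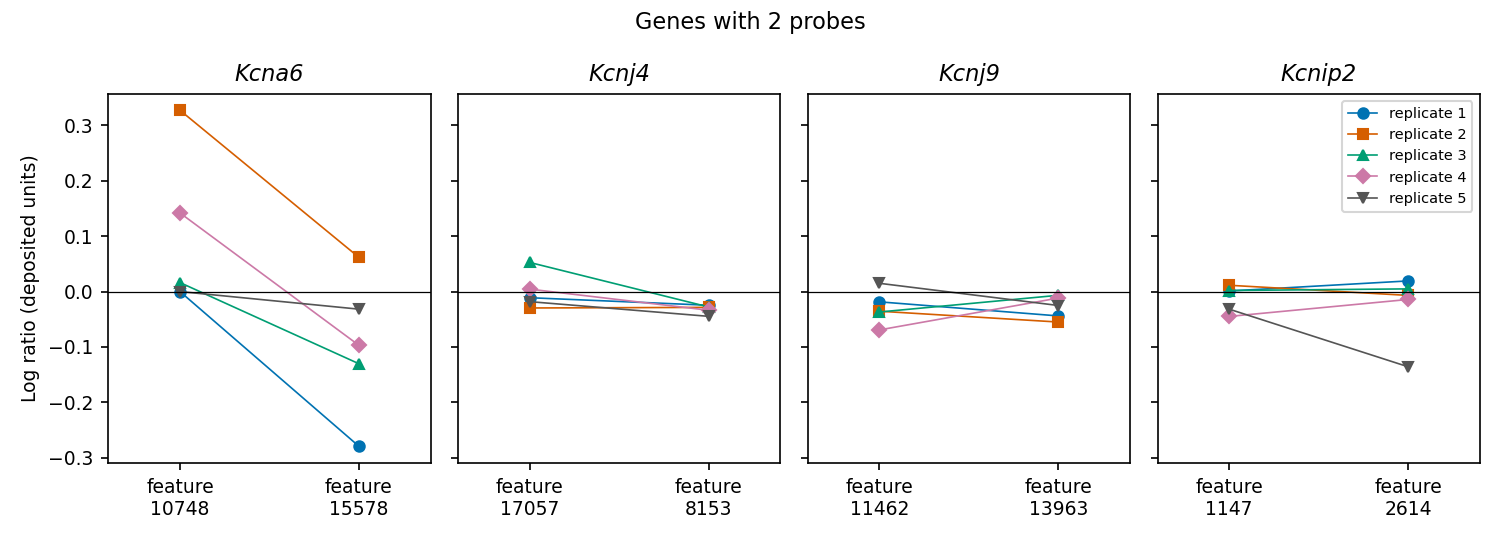
Log ratios (y axis, deposited units) of the 2 probes of Kcna6, Kcnj4, Kcnj9 and Kcnip2, with a line for each of the 5 arrays; feature numbers are on the x axis. Every line for Kcna6 falls from feature 10748 to feature 15578, while the lines of Kcnj4 and Kcnj9 lie within 0.0692 of 0.

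Arrays differed in how widely they spread the potassium channel genes. The SD over the 77 probes was 0.117, 0.214, 0.119, 0.124 and 0.115 on replicates 1 to 5. Replicate 2 was the widest, as it was for all probes (0.174). On it 21 members (27.3%) lay beyond 1.5-fold, against 9 to 12 on the other arrays. Over all probes the shares were 19.3% on replicate 2 and 8.31% to 11.8% on the others. Voltage-gated probes were the widest class on replicate 2 (SD 0.263, beside 0.240 for accessory proteins), and calcium-activated probes were widest on replicate 4 (0.187). Single probes weigh heavily in these SDs. The former includes Kcnc2 at 1.03, and the latter Kcnt2 at 0.432 and the opposite-strand transcript Kcnmb4os1 at -0.402.

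The highest and lowest values were spread unevenly over the arrays. Replicate 2 gave the single highest ratio for 23 of the 77 members, 13 of them voltage-gated, and replicate 4 gave the single lowest for 23. Of all 20868 probes, replicate 2 gave the single highest for 4977, more than any other array. Replicate 4 gave the single lowest for 4282 of them and replicate 5 for 5056. The median over the members was -0.0230 on replicate 4, where 48 members were negative and 25 positive, and between -0.00124 and 0 on the others. Over all probes, 10225 were negative and 9301 positive on replicate 4. Across the 77 members, Pearson's r between 2 arrays had a median of 0.354 over the 10 pairs (range 0.176 to 0.524), and across all probes a median of 0.368. These are correlations across probes that share labelled RNA and array, and probes are not independent replicates.

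**Figure D4:**
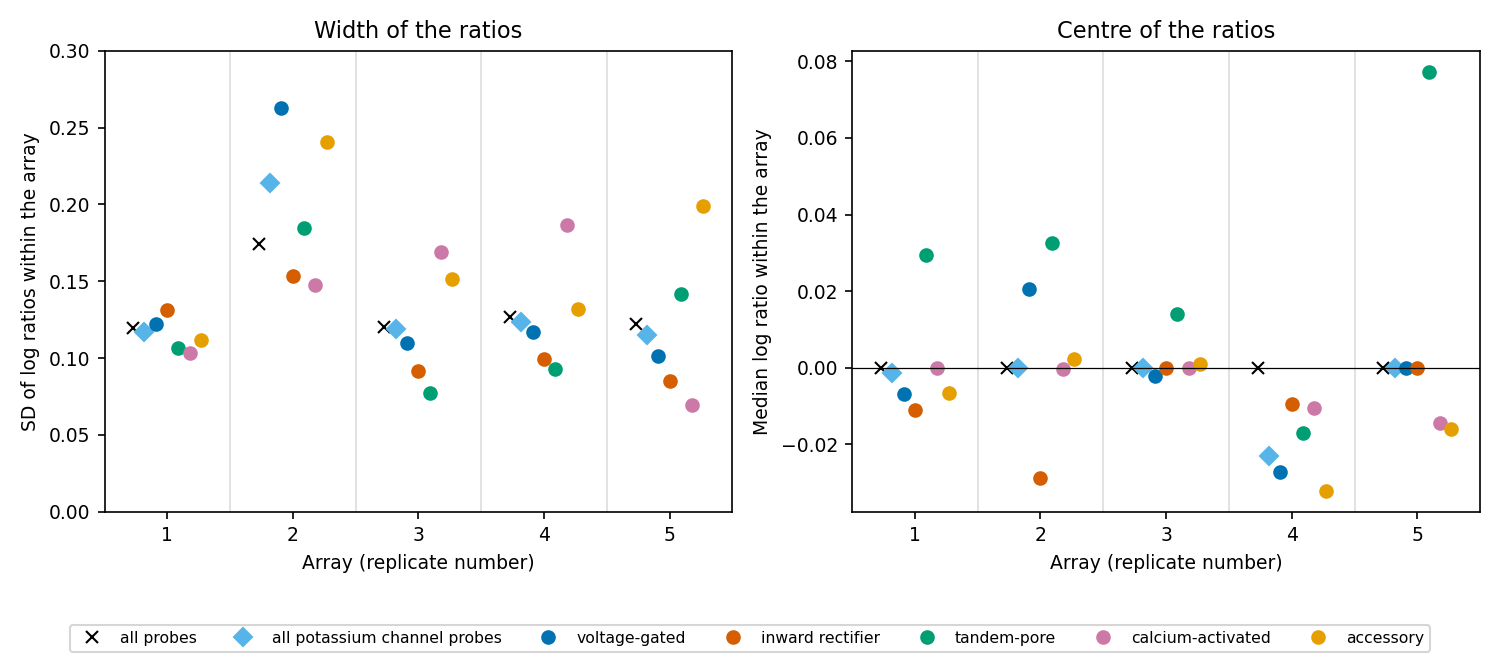
SD (left, y axis) and median (right, y axis) of the log ratios within each of the 5 arrays (x axis) for all probes, all potassium channel probes and each class. Replicate 2 is the widest for all potassium channel probes (0.214) and for voltage-gated probes (0.263), and the median of all potassium channel probes is lowest on replicate 4 (-0.0230).

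Between-array SDs of the members had a median of 0.0822, with quartiles of 0.0358 and 0.130. All probes had a median of 0.0588 and quartiles of 0.0286 and 0.112. Class medians ran from 0.0348 for inward rectifiers through 0.0742 for calcium-activated, 0.0814 for voltage-gated and 0.0958 for tandem-pore channels to 0.113 for accessory proteins. Without replicate 2 the medians were 0.0667 over members and 0.0516 over all probes. These differences are descriptions and were not tested.

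Ratios of exactly 0 were listed for 26 of the 77 members on at least 1 array, or 33.8%, against 25.7% of all probes. Inward rectifiers had 7 of 15, calcium-activated channels 5 of 12 and voltage-gated channels 9 of 28. Accessory proteins had 2 of 10 (both Kcne genes) and tandem-pore channels 2 of 9. By array the count ran from 4 members on replicate 4 to 20 on replicate 5. The 51 members with no exact 0 had a median SD of 0.0522, against 0.136 for the 26 with one, and 0.0468 against 0.110 over all probes. All 713 probes called by limma across the array, Kcnj11 among them, had no exact 0.

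The arrays are a control for power, so the next question was how small a change they could show for each gene. From each probe's own SD, the smallest fold was computed that 5 arrays would show with a power of 0.8 in a test of the mean against 0, two-sided, at an alpha of 0.05 with no adjustment. A reference point is 1.5-fold, which 1 gene copy added to 2 would give if expression followed copy number. Under the log10 reading, 48 of the 76 members with any spread could show 1.5-fold (63.2%, against 71.5% of all probes), and 67 could show 2-fold (88.2% against 90.0%). The SD of 5 values is itself imprecise, and an array fit adjusted over all probes asks for more than this.

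Classes differed in that count. A 1.5-fold change was detectable for 11 of 14 inward rectifier, 8 of 12 calcium-activated and 18 of 28 voltage-gated probes. It was also detectable for 5 of 9 tandem-pore, 4 of 10 accessory and 2 of 3 Kcnab probes. Without replicate 2 the counts, in the same order, were 7 of 13, 8 of 12, 19 of 28, 4 of 9, 3 of 9 and 2 of 3. The order of the classes thus depended on the arrays used. The most sensitive members were Kcnj4 (feature 8153) at 1.03-fold, Kcne1 at 1.048-fold and Kcnc4 at 1.065-fold, leaving out Kcnj6, which was at 0 on 4 arrays. The least sensitive were Kcnc2 at 4.07-fold, Kcnq5 at 3.03-fold and Kcnma1 at 2.57-fold, followed by Kcnk10, Kcnh5, Kcne1l, Kcnt2, Kcnab2 and Kcne2, all above 2-fold. Kcnj3 lay just inside the limit at 1.498-fold and Kcnip4 just outside it at 1.529-fold. Of the 48 probes, 38 had no exact 0.

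**Figure D5:**
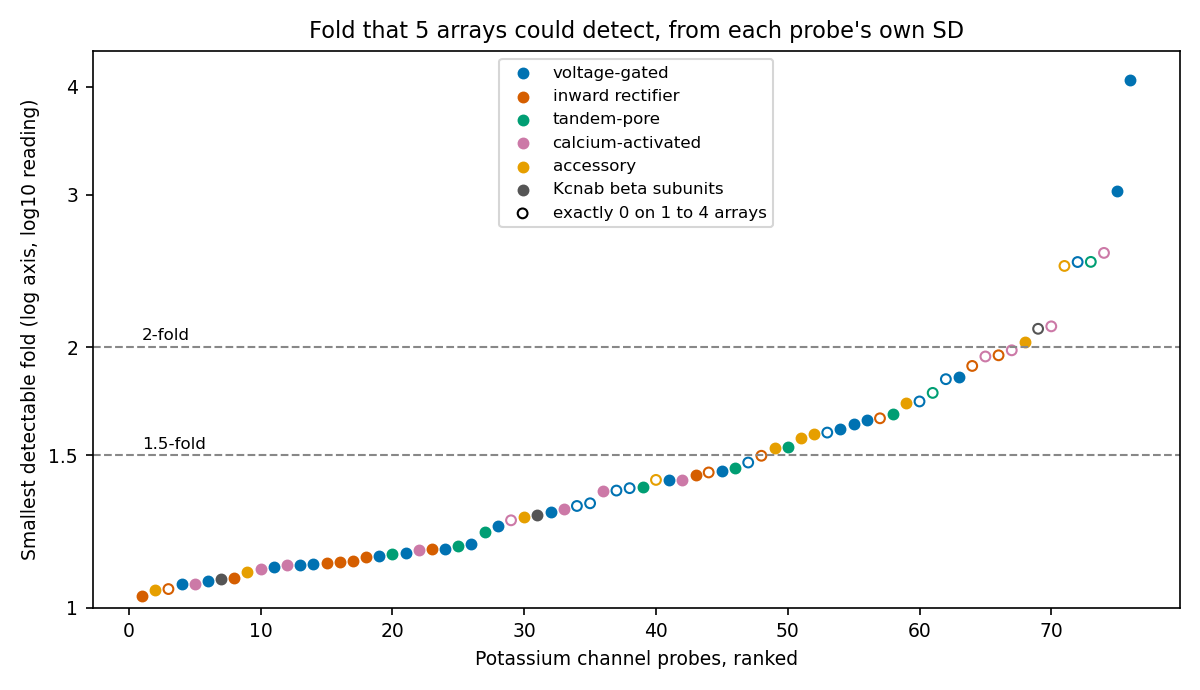
Smallest fold detectable with 5 arrays (log y axis, log10 reading) for the 76 potassium channel probes with any spread between arrays, ranked and coloured by class; open circles were at exactly 0 on 1 to 4 arrays. Of these probes 48 lie at or below 1.5-fold and 67 at or below 2-fold, and Kcnc2 is the highest at 4.07-fold.

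Genes that act with potassium channels were set beside the members. These 26 genes were channel partners, regulators and the sodium-potassium pump that builds the potassium gradient. Probes existed for 20 of them (26 probes), of which limma called 0, beside 3.42% of all probes. At an unadjusted p of 0.05, 3 passed in limma (Calm3, 1 probe of Wnk1 and Atp1b1), or 11.5%, beside 27.3% of all probes. Atp1b1, a beta subunit of the pump, had the largest mean, at 0.213 ± 0.192 (SD, n = 5; limma adjusted p = 0.164). The list's median was -0.000638 and its median SD 0.0817, close to the 0.0822 of the members.

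Sodium, calcium, cyclic nucleotide-gated, TRP and chloride channel genes, found by symbol, gave 75 probes of 67 genes. Of these, 2 were called, Cacna1g at -0.136 ± 0.0460 (SD, n = 5; limma adjusted p = 0.0452) and Cacng7 at -0.189 ± 0.0666 (limma adjusted p = 0.0463). Both were found by calcium channel symbols and both were negative. An unadjusted p of 0.05 was passed by 15 of the 75 and by 20 of the 77 potassium channel probes. The 15 include Trpc4ap (limma unadjusted p = 0.00539), found by its symbol but named as a protein associated with TRPC4, not as a channel. Over all probes, 3.42% were called and 27.3% passed at an unadjusted p of 0.05. The median SD of the 75 was 0.0684 and 29.3% had an exact 0, against 0.0822 and 33.8% for the potassium channel probes. These differences were not tested.

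Cell type markers were tested in the same fit, and their ratios do not show whether a marker is expressed. Beside 3.42% of all probes called and 27.3% at an unadjusted p of 0.05, limma called 0 of 10 fibroblast probes (4 at an unadjusted p of 0.05), 0 of 8 muscle probes (2) and 0 of 5 epithelial probes (1), and 1 of 10 neuron probes, a Gad1 probe with a mean of -1.40 ± 0.0980 (SD, n = 5; limma adjusted p = 0.00246). The median SD was 0.0260 over the fibroblast markers, 0.0373 over muscle, 0.0532 over epithelial and 0.0570 over neuron markers, all below the 0.0822 of the potassium channel probes.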

How the data were processed

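Each array's deposited table holds 1 log ratio per probe, read here as log10 by assumption, since the base is not stated. The authors' image analysis and normalization are not given in the sources used here. Each deposited column had a median of exactly 0. Since 6.43% to 20.8% of each column was exactly 0, that median does not show how the arrays were centred. Among values that were not 0, the median ran from -0.00486 on replicate 4 to 0.00496 on replicate 2. Genes were named from the platform's mouse annotation, in which 17786 of 20868 probes have 1 symbol, 16 several and 3066 none. Of the 73 member symbols, 66 are also hamster RefSeq gene symbols. No sequence is shown. The log2 ratios of all 20868 probes were fitted in limma 3.58.1 (R 4.3.3) with an intercept alone and eBayes, against 0, two-sided, with Benjamini-Hochberg adjustment over all probes and a threshold of 0.05. No filter was applied. In a simulation, ratios of 20868 probes had independent normal errors centred on 0, with each probe's own SD. On these, limma recovered 36% of probes changed 1.5-fold, 74% changed 2-fold, 86% changed 4-fold and 92% changed 8-fold, 50 of each, with 10 false calls. The simulation held no probe or dye bias, and the deposited ratios gave 713 calls although 0 is implied there too. The 10 are therefore not the false-call rate of the real fit. Detectable folds used each probe's SD over 5 arrays. Fewer arrays limit the precision of every value.

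Members, lists and tests were chosen with earlier results of these data known. Probes were named if called, if among the 3 largest absolute means or the 2 largest or 2 smallest SDs of a class, if 1 of several probes of a gene, if at exactly 0 on 3 or more arrays, or if on a list of 14 genes of known interest. Members named outside this rule were chosen after their values were seen. Alternatives were log2 reading, other centring, scaling and quantile normalization, array weights, robust eBayes, exact zeros as missing, only probes with no exact 0, gene averages, other thresholds, a moderated SD and leaving out each array.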

Additional observations from a re-analysis of the deposited data

Results flagged for a closer look

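Within the 5 arrays, a value was listed where its gap to the nearest other value, divided by the whole range, passed Dixon's 95% critical value of 0.71. For 5 independent, normally distributed values, chance alone lists about 1 in 20 such groups. That share does not hold for probes at exactly 0 on 4 arrays, where the ratio is always 1 (Kcnj6, Kcnmb4os2, Kcnt2 and Kcne1l among the members). Among the potassium channel probes 10 of 76 met this, or 13.2%, beside 14.2% of all probes with any spread, and replicate 2 held 5 of the 10.

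Replicate 2 stood apart for the axonal channel Kcna1 (0.340), the Kv3 gene Kcnc2 (1.03), the G protein-gated Kcnj6 (-0.0288), the beta subunit gene Kcnmb4 (0.419) and Kcne1l (0.525). Kcnj6 and Kcne1l were at exactly 0 on the other 4 arrays. Replicate 1 stood apart for the M-current gene Kcnq5, at -0.396 beside positive values elsewhere. Replicate 4 stood apart for the opposite-strand transcript Kcnmb4os1 (-0.402) and for Kcnt2 (0.432), which was otherwise at 0. Replicate 5 stood apart for Kcnmb4os2 (-0.134), otherwise at 0, and for 1 Kcnip2 probe (feature 2614, -0.136).

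Outside the members, 1 probe of the receptor gene Abcc8 was 0.117 on replicate 5. The called genes Cacna1g and Cacng7 lay nearest to 0 on replicate 5 (-0.0556) and replicate 4 (-0.0753).

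As array summaries, the median over the potassium channel probes was lowest on replicate 4 (-0.0230). The SD over the probes was highest on replicate 2, at 0.214 over all members and 0.263 over voltage-gated ones. The cause of these values was not tested.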

How the results depend on the processing

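The count of called members rested on 1 probe near the threshold. From 1 it became 2 with arrays scaled to the same interquartile range, 4 with array weights, 0 with robust eBayes, and 3 both with exact zeros set to missing and among probes with no exact 0. It was 8 at an adjusted p of 0.1 and 20 at an unadjusted p of 0.05. Leaving out any 1 array gave 0 called members in limma, and 4 to 63 calls over all probes instead of 713. At an unadjusted p of 0.05 in limma, 15 to 17 members then passed. That was 19.5% to 22.1% of them, beside 21.1% to 25.4% of all probes. Over all probes limma called 971 with scaled arrays, 529 with quantile normalization and 312 with centring on values other than 0. It called 1581 with array weights and 250 with robust eBayes. With exact zeros set to missing it called 578 of 18873 probes (3.06%), beside 4.17% of members. Among probes with no exact 0 it called 1325 of 15507 (8.54%), beside 5.88% of members. Of the 48 named probes 23 had a positive mean, as had 12 of the 31 with no exact 0. The latter setting drops probes and leaves the means of the others unchanged. Members able to show 1.5-fold numbered 48, or 75 if the values are log2, and 39 to 43 with 4 arrays. Of the 48 named probes, 8 changed sign in some setting. Kcnj4 (feature 17057) went from -0.000389 to 0.00364 with scaled arrays, 0.00297 with quantile normalization and 0.0139 with array weights, and Kcnk6 from 4.67e-05 to -0.00738, -0.0109 and -0.0284. With 1 array left out the means ran from -0.0136 to 0.00691 for Kcnj4 (feature 17057), -0.00736 to 0.0171 for Kcnj8, -0.0055 to 0.0214 for Kcnk4, -0.0482 to 0.0444 for Kcnk6, -0.0614 to 0.0467 for Kcne2, -0.0380 to 0.000734 for Kcnip2 (feature 2614), -0.0386 to 0.00378 for Kcnab1 and -0.0416 to 0.0791 for Kcnab2. The cause was not tested. The median mean of the members stayed at or below 0 in all these settings. No paired analysis was possible because the 5 arrays form 1 group and each holds its own replicate number. Without intensities, signal over background could not be weighed.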
